A study of Mus musculus with 10 samples.

Results

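In 3 of 10 libraries of mouse terminal ileum, many genes that mark the upper small intestine were high and most genes of ileal bile acid uptake were low. Some genes of the upper gut did not follow, among them the iron exporter Slc40a1 and the hormone secretin (Sct), which were lower. These 3 libraries, VSG 2, sham 2 and sham 4, are called proximal-like here, and the other 7 ileal-like. They were chosen from the data by 1 gene, Gata4, a transcription factor of the duodenum and jejunum. A library with more than 50 Gata4 counts in each 1000000 of its total (CPM) was proximal-like, and one with less than 20 was ileal-like. Gata4 stood at 122 CPM in VSG 2, at 103 in sham 2 and at 195 in sham 4. In the 7 others it lay between 1.71 and 6.05 CPM. The values nearest to the limits were therefore 103 in sham 2 and 6.05 in VSG 3, and no library lay between them. Since Gata4 chose the libraries, its own difference is no finding, and the differences of all other genes between the same libraries are given as a description.

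The libraries came from male C57Bl6 mice made obese by a diet with 60% of its energy as fat, given for 6 weeks before an operation at 8 weeks of age. The operation was either vertical sleeve gastrectomy (VSG, removal of most of the stomach along its greater curve; 5 libraries, fed ad libitum afterwards) or a sham operation (5 libraries, pair-fed to the VSG mice). All mice received a liquid diet for 4 perioperative days, and about 8 weeks later they were fasted overnight, gavaged with 0.5 mL of the liquid diet and killed 1 hour afterwards. No genetic change is given for any group. The proximal-like libraries were 1 of 5 VSG and 2 of 5 sham libraries, so both operations had libraries of each class. The operation was a covariate in each comparison of the 3 with the 7.

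The small intestine changes along its length. Its upper part, the duodenum and jejunum, digests sugars and absorbs fat, sugars, folate and iron, and it holds endocrine cells that make GIP and cholecystokinin. The ileum, its last part, takes up bile acids through the transporter Slc10a2 and the binding protein Fabp6, and there bile acids act on the nuclear receptor Fxr (Nr1h4) to induce the hormone Fgf15. Gata4 is known to hold jejunal enterocytes to their upper programme and to keep the ileal bile acid genes silent there, while Hox genes of high number are active further down the gut.

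Lct, Fabp6 and Slc10a2 served to check the names. Levels from here on are normalised CPM (CPM after scaling of the libraries), differences are log2 fold changes ± SE from the fit, proximal-like minus ileal-like, and a value given as without a library is the same difference fitted without it. Lct, the lactase of the brush border, stood at 2053 in VSG 2, 2570.0 in sham 2 and 1452 in sham 4. In the 7 ileal-like libraries it lay at 3.67 to 24.9 (median 12.0). The 3 libraries were thus all far above the 7, and the log2 difference was 7.77 ± 0.54, about 218-fold. Fabp6, which binds bile acids inside ileal enterocytes, stood at 38.8 in VSG 2, 55.7 in sham 2 and 62.1 in sham 4, against 2538 to 6287 (median 3931) in the 7 libraries, a log2 difference of -6.29 ± 0.45. Slc10a2, the sodium-dependent bile acid carrier of the ileal brush border, stood at 11.2 in VSG 2, 15 in sham 2 and 3.90 in sham 4, against 189 to 525 (median 399), a log2 difference of -5.04 ± 0.52 (-5.65 without sham 2). Neither ileal marker was at 0 in any library. The 3 libraries thus had low levels of both ileal markers, although their labels name the terminal ileum as all others do. Where along the intestine the tissue of these libraries was taken, and whether samples were exchanged, was not tested. In such bulk samples, fewer cells of a type and less RNA per cell cannot be told apart.

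The promoters of 5 genes at the centre of this contrast are shown, because Gata factors bind short motifs that can be looked for in them. They are the markers Lct, Fabp6 and Slc10a2, then Fabp1, the fatty acid binding protein of the same family as Fabp6 that differed in the other direction, and Enpp3, an ectoenzyme that splits extracellular nucleotides and was among the largest differences. Each line holds the 250 bases before the start of the gene in RefSeq (build GRCm38.p6), 5′ to 3′ on the gene's strand, at the coordinates given after the name. The promoters of Apoa4, Suox and Slc25a48 were searched too and held no match, and they are not shown. Capitals mark the letters AGATAA or TGATAA or AGATAG or TGATAG, or the reverse complement of one of them on the other strand.
Lct (chr1:128328319-128328568, minus strand): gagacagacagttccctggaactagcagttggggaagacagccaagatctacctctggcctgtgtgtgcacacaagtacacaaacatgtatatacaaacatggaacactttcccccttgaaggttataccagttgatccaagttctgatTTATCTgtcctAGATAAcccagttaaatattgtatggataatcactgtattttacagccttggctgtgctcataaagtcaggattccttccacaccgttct
Enpp3 (chr10:24836196-24836445, minus strand): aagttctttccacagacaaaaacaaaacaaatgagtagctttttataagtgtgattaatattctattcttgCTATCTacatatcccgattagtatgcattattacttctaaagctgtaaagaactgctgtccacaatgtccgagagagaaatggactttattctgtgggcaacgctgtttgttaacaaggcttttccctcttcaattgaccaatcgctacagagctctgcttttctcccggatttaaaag
Fabp1 (chr6:71199629-71199878, plus strand): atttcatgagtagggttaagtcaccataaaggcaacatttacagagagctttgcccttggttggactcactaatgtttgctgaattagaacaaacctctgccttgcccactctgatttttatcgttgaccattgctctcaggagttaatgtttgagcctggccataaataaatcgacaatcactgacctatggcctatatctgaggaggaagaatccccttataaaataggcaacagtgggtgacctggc
Fabp6 (chr11:43601563-43601812, minus strand): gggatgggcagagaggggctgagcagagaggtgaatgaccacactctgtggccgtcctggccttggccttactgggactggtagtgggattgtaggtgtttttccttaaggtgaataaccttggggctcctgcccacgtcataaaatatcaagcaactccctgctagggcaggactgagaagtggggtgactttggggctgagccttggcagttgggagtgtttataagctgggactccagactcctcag
Slc10a2 (chr8:5105288-5105537, minus strand): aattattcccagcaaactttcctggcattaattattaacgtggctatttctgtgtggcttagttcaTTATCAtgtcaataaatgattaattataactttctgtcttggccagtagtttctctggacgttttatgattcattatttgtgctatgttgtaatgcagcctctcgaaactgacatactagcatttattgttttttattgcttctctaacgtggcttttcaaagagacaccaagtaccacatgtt
The Lct promoter held 2 matches, whose first bases lay 101 and 90 bases before the start. The promoters of Enpp3 and Slc10a2 held 1 match each, 179 and 184 bases before the start, and those of Fabp1 and Fabp6 held none within this window. Of all 32851 RefSeq promoters of this length, 26.5% held a match, and of the 10804 whose genes were tested here 17.9% did. The share was 25.9% of 402 promoters of genes higher in the proximal-like libraries and 19.9% of 312 promoters of genes lower in them. A match is only a run of letters, and binding was not measured.

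Across all genes, 16228 of 36401 passed the filter on low counts. At an adjusted p under 0.05 in edgeR's quasi-likelihood fit, 568 genes (3.5% of those tested) were higher in the proximal-like libraries and 459 (2.83%) were lower, 1027 or 6.33% in either direction. This threshold serves to sort genes for the description and is no test, since the libraries were chosen by their own expression. All counts of higher genes given here include Gata4 itself. Of these genes, 412 were higher and 323 lower by at least 2-fold, and 42 and 30 by at least 16-fold. The median log2 fold change of all tested genes was -0.02. The genes called higher took 10.1% to 12.2% of all counts in the 3 libraries and 2.79% to 4.53% in the 7, and the genes called lower took 1.43% to 1.97% and 5.01% to 7.66%. Without regard to the fit, all 3 libraries lay above all 7 for 917 genes (5.65%) and below them for 972 (5.99%), 1889 or 11.6% in either direction. Without sham 4, the counts of called genes dropped to 342 higher and 192 lower, and without VSG 2 the count of lower genes was 228. Total counts per library were 15364651 to 34058181, with sham 4 at 16848364 among the 2 shallowest.

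**Figure D1:**
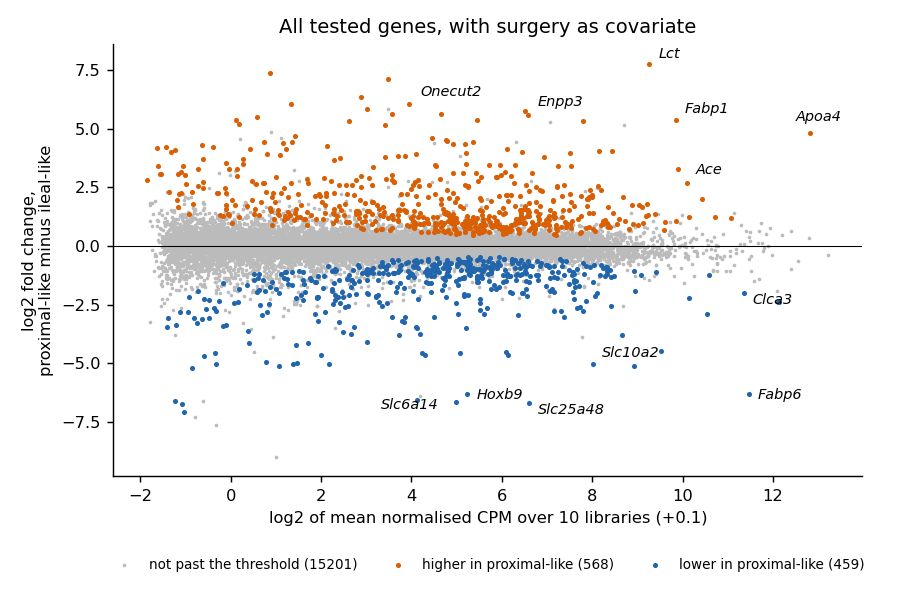
Log2 fold change of each tested gene (proximal-like minus ileal-like, vertical axis) against the log2 of its mean normalised CPM over 10 libraries (horizontal axis). Orange points are the 568 genes called higher, blue points the 459 called lower and grey points all others, and Lct and Fabp6 combine a high level with a large difference.

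Among the Gata factors, Gata6 differed slightly and Gata5 did not pass the threshold. Gata6, which is active along the whole small intestine, stood at 83.7 in VSG 2, 104 in sham 2 and 117 in sham 4, against 47.7 to 84.4 (median 56.5), and the classes touched. Its log2 difference of 0.84 ± 0.19 was called, but it was 0.81, 0.79, 0.77, 0.72 and 0.78 without sham 1, 2, 3, 4 and 5, each time short of the threshold. Gata5 stood at 108 in VSG 2, 121 in sham 2 and 79.2 in sham 4, and the 88.4 to 211 of the 7 libraries overlapped with them. Zfpm1, which encodes Fog1, a partner protein of Gata factors, stood at 43.3 in VSG 2, 55.7 in sham 2 and 87.9 in sham 4. All 3 values lay above the 11.1 to 16.9 (median 13.9) of the ileal-like libraries, a log2 difference of 2.02 ± 0.15.

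Of 18 tested members of a list of transcription factors of gut position, 5 were higher (all tested genes: 3.5%) and 1 was lower (2.83%). The median was -0.27. The 18, the 5 and the median include Gata4, which chose the libraries and is no evidence. Creb3l3, a membrane-bound factor that drives apolipoprotein genes, stood at 861 in VSG 2, 955 in sham 2 and 1064 in sham 4 against 179 to 741 (median 338), a log2 difference of 1.67 ± 0.34 that was 1.53 and missed the threshold without sham 4. Onecut2, a factor of the duodenum, stood at 10.5 in VSG 2, 2.83 in sham 2 and 137 in sham 4 against 0.313 to 0.715 (median 0.564). The 3 libraries were all above the 7, but sham 4 was much the highest, and the log2 difference of 6.06 ± 0.92 was 3.66 without sham 4 and 6.83 without VSG 2. Nr1h4, the bile acid receptor Fxr, was the member called lower, at 56.3 in VSG 2, 47.1 in sham 2 and 49.6 in sham 4 against 151 to 362 (median 227, log2 difference -2.28 ± 0.29). Cdx2, Hnf4a and Cdx1, which the epithelium uses along the whole intestine, were not called. The intestinal master factor Cdx2 stood at 181 to 204 and 193 to 404 in the 3 and the 7, and the enterocyte factor Hnf4a at 653 to 921 and 828 to 1387. Cdx1, a relative of Cdx2, stood at 121 to 157 in the 3 and 208 to 409 in the 7, apart from each other but short of the threshold (log2 difference -0.87 ± 0.25).

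The Hox genes, which set position along the body axis in the embryo and stay active in the adult gut, differed mainly within the Hoxb cluster. Of 22 Hox genes that passed the filter, of 39, 8 were lower in the proximal-like libraries (all tested genes: 2.83%). None was higher (3.5%), and the median was -0.44. Hoxb9 stood at 0.772 in VSG 2, 0.691 in sham 2 and 0.558 in sham 4 and at 36.7 to 71.7 (median 49.7) in the 7 libraries. It was thus nearly silent in the 3 and clearly present in each of the 7, a log2 difference of -6.30 ± 0.32. Its neighbours were also lower in all 3 libraries than in any of the 7. Hoxb8 stood at 0.279 to 1.41 against 7.19 to 13.5 (log2 difference -3.43 ± 0.43), Hoxb7 at 1.51 to 2.61 against 18.5 to 36.8 (log2 difference -3.48 ± 0.30) and Hoxb6 at 1.45 to 2.83 against 17.9 to 34 (log2 difference -3.75 ± 0.30). Towards the other end of the cluster the differences were smaller. Hoxb5 differed by -2.17 ± 0.33 and Hoxb3 by -1.95 ± 0.42, and for Hoxb3 the classes overlapped. Values of Hoxb3 without single libraries are not given. Hoxb4 differed by -1.42 ± 0.26, and by -1.41 without VSG 2 and -1.38 without sham 4, both short of the threshold. Hoxb2 stood at 1.45 to 2.45 and 1.19 to 2.95 with a difference of 0.09. Outside the cluster Hoxc9 alone was called, at 0 in VSG 2, 0.0629 in sham 2 and 0 in sham 4 against 0.579 to 1.71. No tested gene of the Hoxa or Hoxd cluster was called, and the Hoxa genes had log2 differences of 0.49 for Hoxa7 to 1.18 for Hoxa4.

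**Figure D2:**
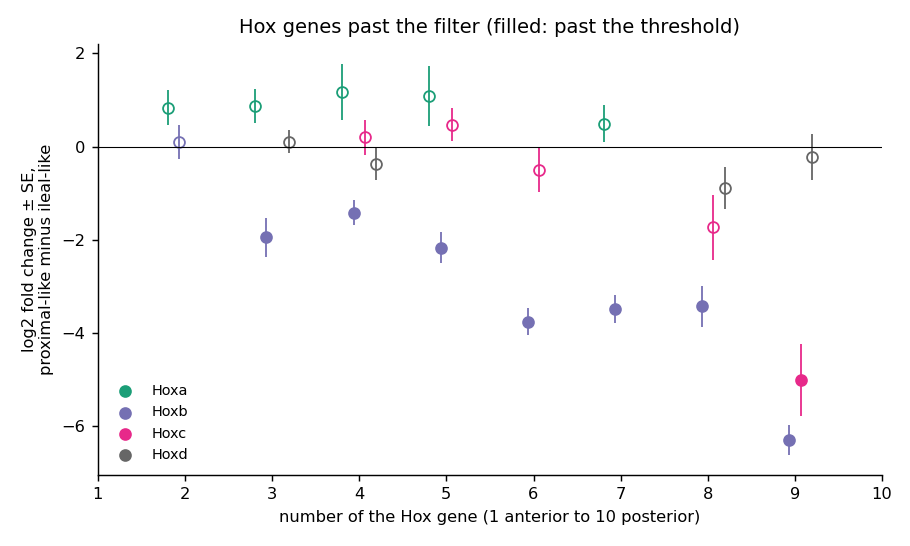
Log2 fold change ± SE (proximal-like minus ileal-like, vertical axis) of the 22 Hox genes past the filter by the number of the gene (horizontal axis), coloured by cluster, with filled symbols for genes past the threshold. In the Hoxb cluster the difference was smallest for Hoxb2 at 0.09 and largest for Hoxb9 at -6.30.

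Among genes of sugar digestion and uptake, those called were all higher in the proximal-like libraries. Of 8 tested disaccharidases and alkaline phosphatases 2 were called higher and none lower, with a median of 1.16. Lct, which had checked the names, is among those called. Of 14 genes of sugar transport and fructose metabolism 8 were called higher and none lower, with a median of 1.40. The shares over all tested genes were 3.5% higher and 2.83% lower. Beside Lct, the enzyme called was Treh, the trehalase, at 429.8 in VSG 2, 641 in sham 2 and 559 in sham 4 against 79.8 to 187 (median 149.8, log2 difference 2.07 ± 0.28). Sis, the sucrase-isomaltase, stood at 4542 in VSG 2, 5614 in sham 2 and 4716 in sham 4, overlapping the 1182 to 4699 (median 2506) of the ileal-like libraries, and its difference of 0.99 ± 0.44 was short of the threshold. Slc5a1, the sodium-glucose carrier Sglt1, stood at 3695 in VSG 2, 2545 in sham 2 and 3709 in sham 4 against 1177 to 2617 (median 1359.6), with an overlap. Its difference of 1.17 ± 0.27 was 1.33, 1.20, 1.01 and 1.13, and no longer called, without VSG 2, sham 1, sham 4 and sham 5. Slc2a2, the glucose carrier Glut2 of the cell's blood side, stood at 312 in VSG 2, 168 in sham 2 and 524 in sham 4 against 3.33 to 85.4 (median 11.9). The classes did not overlap, yet the 7 libraries spread widely, and the call at 3.80 ± 0.94 ended without VSG 2 (4.30) or without sham 1 (4.16), 2 (4.04), 3 (3.57), 4 (3.10) or 5 (3.54). Slc2a7, a hexose carrier, stood at 34.4 in VSG 2, 37.8 in sham 2 and 71.3 in sham 4 against 1.69 to 8.45 (log2 difference 3.93 ± 0.50, and 4.53 without VSG 2). Slc5a4b, a relative of Slc5a1, stood at 141 in VSG 2, 382 in sham 2 and 71.6 in sham 4 against 5.01 to 23.5 (log2 difference 4.12 ± 0.59, 4.74 without VSG 2 and 3.03 without sham 2). Pck1, a key enzyme of glucose synthesis, stood at 438 in VSG 2, 665 in sham 2 and 322 in sham 4 against 22.8 to 114 (median 42.1, log2 difference 3.39 ± 0.48). These 3 genes were higher in each proximal-like library than in any other. The fructose carrier Slc2a5 was at 151 to 217 and 25 to 186, an overlap, and short of the threshold.

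Genes of fat absorption showed the same direction. Of 24 genes of lipid absorption and chylomicron assembly, all tested, 10 were called higher (all tested genes: 3.5%) and none lower (2.83%). Their median was 0.86. The summed level of the list was 46225 to 65519.8 normalised CPM in the 3 libraries and 10785 to 36811 in the 7. Apoa4, the apolipoprotein that enterocytes add to chylomicrons, stood at 17633 in VSG 2, 23245 in sham 2 and 16227 in sham 4. In the 7 libraries it spread over 205 to 9255 (median 656), with VSG 3 highest, and the difference of 4.80 ± 0.99 was 4.44 and no longer called without sham 1 and 5.75 without VSG 2. Fabp1, the liver-type fatty acid binding protein, stood at 2071 in VSG 2, 1895 in sham 2 and 4308 in sham 4 against 12.3 to 647 (median 81.3). VSG 3 was again the highest of the 7, and the difference of 5.38 ± 1.08 was 6.26 without VSG 2, 6.05 without sham 3 and 4.64 without sham 4. Fabp2, the intestinal-type relative, overlapped between the classes at 3428 to 10229 and 1666 to 8550.2, and its difference of 0.63 ± 0.58 was 1.31 without VSG 2 and -0.19 without sham 2.

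Other genes of the chylomicron pathway had the same direction. Mttp, which loads lipid onto apolipoprotein B, stood at 2445 in VSG 2, 2736 in sham 2 and 2911 in sham 4 against 489.9 to 1421 (median 623, log2 difference 1.99 ± 0.29). Apoc3, an inhibitor of lipoprotein lipase carried on chylomicrons, stood at 345 in VSG 2, 359.6 in sham 2 and 501 in sham 4 against 19.7 to 74.9 (median 51.6, log2 difference 3.42 ± 0.40). Cd36, a fatty acid receptor, stood at 141 in VSG 2, 238 in sham 2 and 159.5 in sham 4 against 8.67 to 32.4 (median 19.6, log2 difference 3.17 ± 0.32). For each of these the 3 libraries lay above all 7. Acsl5, which activates fatty acids, was higher by 1.22 ± 0.25, at 1679.7 to 1934 against 520.3 to 1190.4. Of 20 tested genes of fatty acid oxidation and targets of the receptor Ppara, 1 was called higher, near the 3.5% of all tested genes. It was Pdk4, a kinase that slows glucose oxidation, at 37.6 in VSG 2, 41.0 in sham 2 and 53.3 in sham 4 against 1.82 to 13.1 (log2 difference 2.82 ± 0.48, and 3.60 without sham 5). The median of the list was 0.23, or 0.86 without VSG 2 and 0.07 without sham 4.

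**Figure D3:**
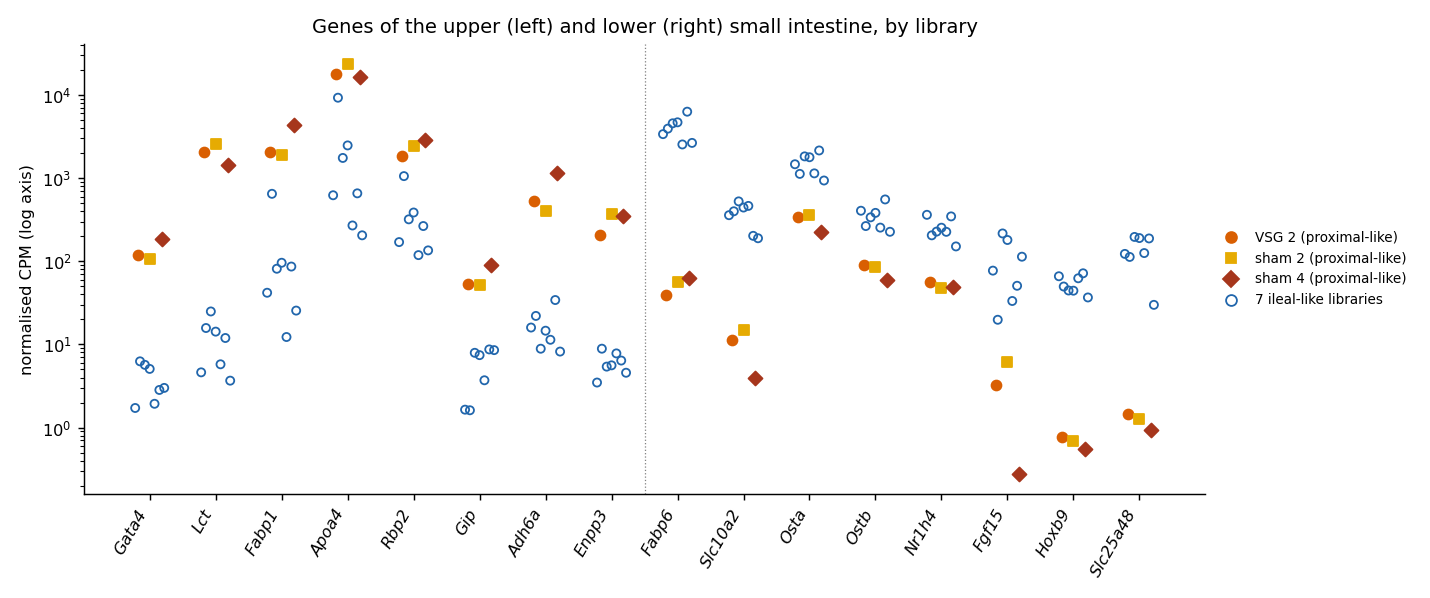
Normalised CPM (vertical log axis) of 8 genes that were higher and 8 that were lower in the proximal-like libraries, with 1 symbol for each library. Filled symbols are VSG 2, sham 2 and sham 4, and open circles are the 7 ileal-like libraries. For all 16 genes the 3 lie on 1 side of the 7. Gata4 is among them only because it chose the libraries, and the others were picked with their values known.

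Most genes of bile acid uptake and its signalling were lower. Of 11 genes 7 were called lower (all tested genes: 2.83%) and 2 higher (3.5%), and the median was -2.13. The summed level was 869.9 to 1032 in the 3 libraries and 4354 to 9711 in the 7, with no overlap. Fabp6 and Slc10a2, which had checked the names, are in this list and among its lower genes. Fabp6 alone stood at 2538 to 6287 in the 7. Osta and Ostb, the pair of subunits that lets bile acids out of the enterocyte towards the blood, differed to a like degree. Osta stood at 342 in VSG 2, 363 in sham 2 and 227 in sham 4 against 935 to 2149 (median 1467, log2 difference -2.23 ± 0.33), and Ostb at 89.9 in VSG 2, 84.2 in sham 2 and 59.3 in sham 4 against 226 to 554 (median 337, log2 difference -2.13 ± 0.32). Fgf15, the hormone by which ileal bile acids slow bile acid synthesis in the liver, stood at 3.24 in VSG 2, 6.10 in sham 2 and 0.279 in sham 4. The 7 ileal-like libraries held 19.8 to 216 (median 77.2), all above the 3, and the difference was -4.64 ± 1.01. That call ended without VSG 2 (-4.26) or sham 4 (-4.18), and the value was -5.91 without sham 2. The members in the other direction were Nr0b2, the repressor Shp that Fxr can induce, and Abcc2, an export pump of conjugates. Nr0b2 was scarce, at 0.849 in VSG 2, 0.691 in sham 2 and 5.80 in sham 4 against 0.0783 to 0.405, and its difference of 3.26 ± 0.73 was 2.94, 1.91 and 2.97, no longer called, without sham 1, 4 and 5 and 3.97 without VSG 2. Abcc2 stood at 254 in VSG 2, 391 in sham 2 and 387 in sham 4 against 43.3 to 229 (median 104, log2 difference 1.86 ± 0.47). Its call ended without any 1 of VSG 1 (1.83), VSG 3 (1.84), sham 1 (2.09), sham 2 (1.69), sham 3 (1.69), sham 4 (1.73) and sham 5 (1.59).

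Carriers of amino acids differed in both directions. Of 16 tested, 4 were higher (all tested genes: 3.5%) and 2 lower (2.83%), and the median was 0.08. Slc36a1, a proton-coupled carrier of small amino acids, stood at 333 in VSG 2, 309 in sham 2 and 148 in sham 4 against 23.4 to 39.6 (median 33.3, log2 difference 3.09 ± 0.21). Slc7a8, an exchanger for neutral amino acids on the blood side, stood at 422 in VSG 2, 416 in sham 2 and 349 in sham 4 against 38.5 to 109 (median 67.9, log2 difference 2.59 ± 0.29). Slc16a10, which carries aromatic amino acids, was higher by 1.90 ± 0.33, at 234 to 328 against 51.1 to 139. In the other direction, Slc6a14, a broad carrier of neutral and basic amino acids, was nearly silent in the 3 libraries at 0.695 in VSG 2, 0.220 in sham 2 and 0.335 in sham 4. In the 7 it stood at 16.4 to 140.2 (median 35.9), a difference of -6.62 ± 0.92. Slc1a1, the glutamate carrier, stood at 28.7 to 83.0 against 187 to 669.7 (log2 difference -2.34 ± 0.50), and the call ended without VSG 2 (-2.70) or sham 4 (-1.96). The 3 libraries lay on 1 side of the 7 for each of these carriers. Brush border peptidases were likewise divided, with 2 of 11 higher (all tested genes: 3.5%), 1 lower (2.83%) and a median of -0.16. Ace, the angiotensin-converting enzyme, stood at 2733 in VSG 2, 3237 in sham 2 and 1762 in sham 4 against 322 to 827 (median 340.2, log2 difference 2.67 ± 0.33). Mme, or neprilysin, stood at 528 in VSG 2, 730.4 in sham 2 and 717 in sham 4 against 49.3 to 228 (median 148, log2 difference 2.39 ± 0.44). Mep1a, a subunit of the metalloprotease meprin, was the one lower, at 267 in VSG 2, 432 in sham 2 and 88.8 in sham 4 against 1270.4 to 2699 (median 2029, log2 difference -2.89 ± 0.50, and -3.57 without sham 2). For these peptidases too the classes did not overlap.

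No gene of iron uptake was called higher. Duodenal iron uptake is known for the reductase Cybrd1, the carrier Slc11a2 and the exporter Slc40a1 (ferroportin). Cybrd1 stood at 5.02 to 5.60 in the 3 libraries and 3.69 to 6.99 in the 7, and its difference of 0.08 ± 0.23 was within the spread of the 7. Slc11a2 stood at 60.7 to 73.9 and 53.8 to 107, also overlapping. Slc40a1 was lower in all 3 proximal-like libraries than in the 7, at 7.18 in VSG 2, 3.58 in sham 2 and 13.7 in sham 4 against 35.3 to 98.0 (median 58.1, log2 difference -2.72 ± 0.44, and -3.46 without sham 4). In the list of 13 tested genes of iron, calcium and zinc absorption none was called higher (all tested genes: 3.5%). At that share a list this short can hold no call. Its median was 0.06, and 3 genes were called lower (all tested genes: 2.83%). Of these, Atp2b1, a calcium pump, stood at 120.4 to 140.0 against 202 to 555 (log2 difference -1.25 ± 0.24, and -0.96, no longer called, without VSG 2).

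Several carriers and binding proteins of vitamins were higher. In their list 5 of 13 tested genes were called higher (all tested genes: 3.5%) and none lower (2.83%), with a median of 0.37. Slc46a1, the proton-coupled folate carrier of the duodenum and jejunum, stood at 81.9 in VSG 2, 61.3 in sham 2 and 313 in sham 4 against 10.9 to 27.5 (median 19.4, log2 difference 2.94 ± 0.52, and 1.93 without sham 4). Slc23a1, the vitamin C carrier, stood at 139.9 in VSG 2, 149 in sham 2 and 32.8 in sham 4 against 4.16 to 9.29 (median 4.66, log2 difference 4.35 ± 0.36, and 3.71 without sham 2). Rbp2, which binds retinol in the enterocyte, stood at 1842 in VSG 2, 2439 in sham 2 and 2879.7 in sham 4 against 119 to 1056 (median 265, log2 difference 3.29 ± 0.60, and 3.97 without VSG 2). Each of these was higher in all 3 libraries than in any of the 7, with VSG 3 the highest of the 7 for Rbp2. Cubn and Amn, which form the ileal receptor for vitamin B12 with its intrinsic factor, were not called. Cubn stood at 508 in VSG 2, 1088 in sham 2 and 94.6 in sham 4 against 672 to 1779 (median 1126), so that sham 4 alone was far below the 7. Its difference of -0.92 ± 0.60 was -2.17 without sham 2. Amn stood at 182 in VSG 2, 242 in sham 2 and 100.3 in sham 4 against 136 to 338 (median 206).

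Gut hormones differed by peptide. Of 5 tested hormone genes of the upper gut, 3 were called higher (all tested genes: 3.5%) and 1 lower (2.83%). Of 3 of the lower gut 1 was called lower. Gip, the incretin of duodenal K cells, stood at 53.4 in VSG 2, 52.0 in sham 2 and 89.2 in sham 4 against 1.62 to 8.71 (median 7.43, log2 difference 3.40 ± 0.47). Cck, or cholecystokinin, stood at 10.7 in VSG 2, 9.59 in sham 2 and 28.7 in sham 4 against 3.05 to 6.48 (median 3.57, log2 difference 1.84 ± 0.33). Ghrl, or ghrelin, stood at 4.17 in VSG 2, 3.93 in sham 2 and 16.8 in sham 4 against 1.01 to 3.12 (median 1.29, log2 difference 2.14 ± 0.42). All 3 libraries were above the 7 for each of them, with sham 4 the highest, and without sham 4 the value for Ghrl was 1.46 and no longer called. Sct, or secretin, went the other way, at 22.8 in VSG 2, 28.0 in sham 2 and 17.7 in sham 4 against 34.2 to 105 (median 50.9, log2 difference -1.33 ± 0.34). Its call ended without VSG 1 (-1.27), VSG 2 (-1.35), VSG 3 (-1.36), VSG 4 (-1.33), VSG 5 (-1.34), sham 2 (-1.48) or sham 4 (-1.14).

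Of the distal hormones, Pyy, peptide YY, stood at 9.26 in VSG 2, 12.8 in sham 2 and 0.948 in sham 4 against 31.1 to 69.3 (median 38.8, log2 difference -2.44 ± 0.60). The 3 libraries were below all 7, with sham 4 much the lowest. The call ended without any 1 of VSG 1 (-2.37), VSG 2 (-2.61), VSG 3 (-2.46), VSG 4 (-2.47), VSG 5 (-2.46), sham 1 (-2.50) and sham 3 (-2.15), and the value was -3.14 without sham 2. Gcg, whose product holds GLP-1, stood at 22.9 in VSG 2, 19.8 in sham 2 and 15.7 in sham 4 against 19.3 to 82.7 (median 45.8, log2 difference -1.23 ± 0.34) and was not called. Nts, neurotensin, stood at 45.6 in VSG 2, 86.4 in sham 2 and 4.96 in sham 4 against 69.9 to 133 (median 95.5, log2 difference -1.10 ± 0.60, and -2.16 without sham 2), and only sham 4 was far below the 7. Genes that all enteroendocrine cells share gave no call in either direction among 16 tested, with a median of 0.15. Over all tested genes 6.33% were called.

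Enzymes of drug and alcohol metabolism made up the longest list and had the most calls. Of 39 tested, 17 were higher and 1 lower, with a median of 1.13. Among all tested genes 3.5% were called higher and 2.83% lower. By share the bile acid list had more calls, with 7 lower and 2 higher of 11. Cyp2b10, a cytochrome P450 induced through the receptor Car, stood at 50.3 in VSG 2, 101 in sham 2 and 88.3 in sham 4 against 0.385 to 3.29 (median 1.35, log2 difference 5.64 ± 0.50). Nr1i3, which encodes Car, stood at 82.6 in VSG 2, 101 in sham 2 and 122 in sham 4 against 7.04 to 11.7 (median 9.20, log2 difference 3.49 ± 0.17). Both were low in each of the 7 libraries. Adh6a, an alcohol dehydrogenase, stood at 537 in VSG 2, 406 in sham 2 and 1164 in sham 4 against 8.21 to 34.2 (median 14.6, log2 difference 5.33 ± 0.47), and Adh1, the classical member of that family, at 325 in VSG 2, 371 in sham 2 and 902 in sham 4 against 13.1 to 58.7 (median 26.3, log2 difference 3.95 ± 0.47). Adh4, another member, stood at 8.18 in VSG 2, 16.5 in sham 2 and 88.9 in sham 4 against 0.0783 to 1.26 (log2 difference 5.62 ± 0.94, 4.32 without sham 4 and 6.66 without VSG 2). Ugt2a3, a glucuronosyltransferase, stood at 108 in VSG 2, 138 in sham 2 and 128 in sham 4 against 4.58 to 6.47 (median 5.97, log2 difference 4.45 ± 0.14). For all of these the 3 libraries lay above the 7, as they did for Cyp3a11. Cyp3a11, a main drug oxidase of gut and liver, stood at 76.5 in VSG 2, 158 in sham 2 and 265 in sham 4 against 11.5 to 31.4 (median 15.9, log2 difference 3.02 ± 0.40).

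Genes outside these lists with the largest differences were named by the size of their fold change. Higher were Enpp3, at 208 in VSG 2, 365 in sham 2 and 345 in sham 4 against 3.48 to 8.89 (median 5.61, log2 difference 5.58 ± 0.27), and Dnase1, a secreted nuclease, at 319 in VSG 2, 315 in sham 2 and 232 in sham 4 against 3.16 to 15.3 (median 5.02, log2 difference 5.73 ± 0.38). Mbl2, a mannose-binding lectin, stood at 37.0 in VSG 2, 6.13 in sham 2 and 34.1 in sham 4 against 0 to 1.01 (log2 difference 5.82 ± 0.70), lower in sham 2 than in the other two. Otop3, a proton channel, stood at 0.849 in VSG 2, 0.754 in sham 2 and 70.6 in sham 4 against 0 to 0.648, so that sham 4 stood far above all others, and the difference was 6.34 ± 1.49. The value was 2.56 without sham 4. The call also ended without VSG 4 (6.27), sham 1 (5.71), sham 3 (7.22) or sham 5 (5.75), and the value was 7.41 without VSG 2 and 6.93 without sham 2. Lower were Slc25a48, a mitochondrial carrier, at 1.47 in VSG 2, 1.26 in sham 2 and 0.948 in sham 4 against 29.9 to 196 (median 125, log2 difference -6.69 ± 0.64), and Suox, the sulfite oxidase, at 17.9 in VSG 2, 20.1 in sham 2 and 18.6 in sham 4 against 422 to 844 (median 734, log2 difference -5.11 ± 0.27). Tmigd1, an adhesion protein of the brush border, stood at 31.4 in VSG 2, 96.4 in sham 2 and 15.3 in sham 4 against 660.5 to 1346 (median 1125, log2 difference -4.47 ± 0.61, and -5.49 without sham 2). Tat, the tyrosine aminotransferase, stood at 2.01 in VSG 2, 0.126 in sham 2 and 0.725 in sham 4 against 6.74 to 81.5 (median 25.1, log2 difference -4.65 ± 0.85). In all these genes the 3 libraries were apart from the 7.

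Among the most abundant called genes were also P4hb, the disulfide isomerase that is a subunit of the Mttp complex, and 3 genes of the lower side. P4hb stood at 2466 in VSG 2, 2839.9 in sham 2 and 2788 in sham 4 against 865 to 1982 (median 1253, log2 difference 1.22 ± 0.25, and 1.18, no longer called, without sham 4). Sprr2a1 and Sprr2a2 encode small proline-rich proteins and are near-identical copies, so reads could be split between them. Sprr2a1 stood at 1423 in VSG 2, 1192 in sham 2 and 768 in sham 4 against 2297 to 14189.5 (median 5148, log2 difference -2.41 ± 0.56), and Sprr2a2 gave nearly the same values (log2 difference -2.40 ± 0.56). The call of both ended without VSG 1, VSG 2, sham 2 or sham 4, at -2.38, -2.86, -2.39 and -2.13 for Sprr2a1 and at -2.36, -2.86, -2.38 and -2.12 for Sprr2a2. Ceacam1, an adhesion molecule, stood at 1072 in VSG 2, 754 in sham 2 and 372 in sham 4 against 1390.4 to 2629.7 (median 1726, log2 difference -1.23 ± 0.26), and its call ended without VSG 2 (-1.35) or sham 4 (-0.96).

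Genes of cholesterol synthesis were lower in the proximal-like libraries. Of 21 tested genes 10 were called lower (all tested genes: 2.83%) and none higher (3.5%). All 21 had a negative log2 fold change and the median was -0.91. The summed level was 1545 to 2295 against 2589 to 5124, with no overlap. Nsdhl, a late enzyme of the pathway, stood at 26.1 in VSG 2, 19.8 in sham 2 and 26.2 in sham 4 against 40.8 to 69.8 (median 53.4, log2 difference -1.22 ± 0.22). Srebf2, the transcription factor that drives the pathway, stood at 167 in VSG 2, 143 in sham 2 and 155 in sham 4 against 232 to 358 (median 302, log2 difference -0.89 ± 0.17), and its call ended without VSG 2 (-0.94) or sham 4 (-0.87).

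**Figure D4:**
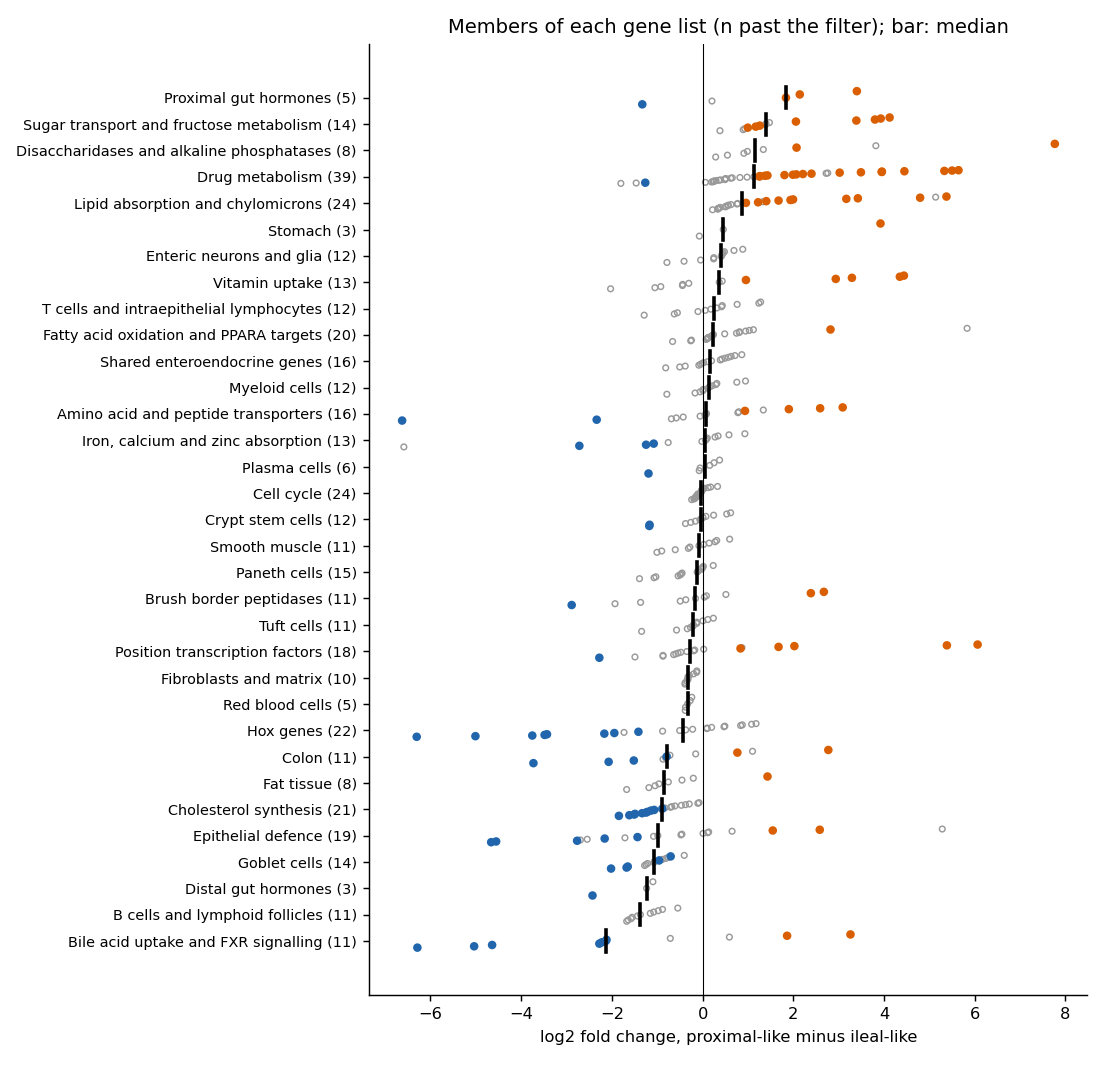
Log2 fold change (proximal-like minus ileal-like, horizontal axis) of every member of each gene list past the filter, 1 list per row with the number of members in brackets. Orange points were called higher, blue points lower, open points were not called, and the black bar is the median, which runs from -2.13 for bile acid uptake to 1.84 for the proximal hormones.

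Genes of mucus cells were lower as well. Of 14 goblet cell genes 5 were called lower (all tested genes: 2.83%) and none higher (3.5%), with a median of -1.07. Their summed level was 5781 to 11257 normalised CPM in the 3 libraries and 13623 to 23413 in the 7, without overlap. Atoh1, the factor that sets secretory cell fate, stood at 11.8 in VSG 2, 10.7 in sham 2 and 9.03 in sham 4 against 26.0 to 41.0 (median 31.2, log2 difference -1.68 ± 0.17). Clca3, a secreted mucus protein, stood at 950.2 in VSG 2, 1072 in sham 2 and 520.0 in sham 4 against 2609 to 4353 (median 3152, log2 difference -2.02 ± 0.29). Muc2, the main gel-forming mucin, lay below all 7 at 624 to 1517 against 1671 to 2453 but was not called (log2 difference -1.06 ± 0.30). In the epithelial defence list 2 of 19 were higher (all tested genes: 3.5%) and 5 lower (2.83%), with a median of -0.99. Il18, an epithelial cytokine, stood at 47.4 in VSG 2, 23.7 in sham 2 and 69.2 in sham 4 against 4.13 to 20.7 (log2 difference 2.58 ± 0.44, and 1.98 without sham 4). Reg3a, an antimicrobial lectin, stood at 202 in VSG 2, 264 in sham 2 and 297 in sham 4 against 60.7 to 152 (log2 difference 1.55 ± 0.25). Both lay above the 7 in all 3 libraries. Its relatives Reg3g (log2 difference -1.08 ± 0.59, and -1.92 without sham 2) and Reg3b (log2 difference -0.99 ± 0.57, and -1.67 without sham 2) were not called. Saa1, serum amyloid A, stood at 2.08 in VSG 2, 1.01 in sham 2 and 1.23 in sham 4 against 9.25 to 145 (median 38.5, log2 difference -4.55 ± 0.81, and -4.18, no longer called, without VSG 2). Nos2, the inducible nitric oxide synthase, stood at 81.1 in VSG 2, 13.8 in sham 2 and 2.90 in sham 4 against 46.5 to 423, with VSG 2 inside that range (log2 difference -2.77 ± 0.59, -2.90 and no longer called without sham 2, and -3.49 without VSG 2).

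Markers of other cell types and organs were also examined. No gene was called among 15 tested for Paneth cells, 11 for tuft cells, 24 for the cell cycle, 11 for smooth muscle, 12 for enteric neurons and glia, 10 for fibroblasts, 11 for B cells, 12 for T cells, 12 for myeloid cells and 5 for red blood cells. Of all tested genes 6.33% were called, a share at which lists this short can hold no call. Summed smooth muscle markers were 1050.3 to 2364 in the 3 libraries and 455 to 4068 in the 7, within the same range. Summed B cell markers were 13.5 to 181 and 21.9 to 307, and all 11 had a negative log2 fold change with a median of -1.37, which was -3.60 without VSG 2, -0.62 without sham 2 and -0.59 without sham 4. Among crypt stem cell genes 2 of 12 were lower, Cdk6, a kinase of the cell cycle, being one at -1.17 ± 0.19, and among plasma cell genes 1 of 6. In the fat tissue list 1 of 8 was higher, Cidec, a lipid droplet protein that is also made outside fat, at 116 to 181 against 31.6 to 81.0 (log2 difference 1.42 ± 0.23), while the median was -0.86, or -1.57 without VSG 2, -0.33 without sham 2 and -0.27 without sham 5. The colon list had 2 higher and 4 lower of 11, with Slc9a3, a sodium-proton exchanger, higher by 2.77 ± 0.58 (no longer called without VSG 2 at 2.78 or sham 4 at 2.66, and 3.68 without sham 5) and the peroxisomal oxidase Hao2 (log2 difference -3.73 ± 0.42) and the mucin glycosyltransferase B3gnt6 (log2 difference -2.07 ± 0.32) lower. Stomach markers were nearly missing. Of 14, 3 passed the filter and Gkn3 was called, at 2.43 in VSG 2, 1.16 in sham 2 and 11.1 in sham 4 against 0.0681 to 0.539 (log2 difference 3.91 ± 0.66, and 2.90 without sham 4), while Gkn1, Gkn2 and Muc5ac were at 0 in all 10 libraries. Of 13 pancreas genes 1 passed the filter, and their summed levels were 21.3 to 81.3 and 14.4 to 121. Whether a share of other cells took part in any difference above was not tested.

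The 3 proximal-like libraries were not alike in all respects. Across genes, over log2 values of all tested genes, their pairwise Pearson correlations were 0.964 to 0.967, those among the 7 were 0.943 to 0.983 and those between the classes 0.915 to 0.963. A gene was counted as apart in 1 library when it differed at least 4-fold from both others, with at least 10 normalised CPM in the higher of them. In sham 4, 31 genes were above and 57 below the other two. In VSG 2, 47 genes were above and 1 was below, and in sham 2 the numbers were 8 and 23. Genes of these sets are named below after their values were seen.

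Pdx1, a factor of duodenum and pancreas that failed the filter over all libraries, stood at 0.0772 in VSG 2, 0.0314 in sham 2 and 14.5 in sham 4, and at 0 to 0.365 in the 7. Onecut2 followed the same order, and its values were given with the position factors. Akp3, the alkaline phosphatase of the duodenum, stood at 9.92 in VSG 2, 13.8 in sham 2 and 265 in sham 4 against 2.92 to 8.75 in the 7, so that VSG 2 and sham 2 were close to the ileal-like libraries. Its difference of 3.82 ± 1.10, not called, was 1.05 without sham 4 and 4.91 without VSG 2. Its relative Alpi differed less, at 969.5 in VSG 2, 1588 in sham 2 and 2382 in sham 4 against 344 to 1095, with an overlap (log2 difference 1.34 ± 0.40, and 1.98 without VSG 2). Reg1, a secreted lectin, stood at 10.6 in VSG 2, 4.34 in sham 2 and 1292 in sham 4 against 2.31 to 17.7. Gsta1, a glutathione transferase, stood at 53.7 in VSG 2, 118 in sham 2 and 569 in sham 4 against 15 to 108, and Papss2, which makes the sulfate donor of the cell, at 138 in VSG 2, 172 in sham 2 and 1682 in sham 4.

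Genes low in sham 4 belonged to several groups. The peptidase Naaladl1 stood at 1455 in VSG 2, 2593 in sham 2 and 202 in sham 4 against 3611 to 7638 in the 7 (log2 difference -1.93 ± 0.63, not called, and -3.01 without sham 2). Cubn and Nts, described above, also had their lowest level in sham 4. Paneth cell products formed a second group. Lyz1, the Paneth cell lysozyme, stood at 5833 in VSG 2, 3904 in sham 2 and 673 in sham 4, and Defa20, a defensin, at 2066 in VSG 2, 2075 in sham 2 and 76.5 in sham 4. In the 7 libraries they ranged over 943 to 6949 and 1099.9 to 9031, so that VSG 2 and sham 2 lay within that range and sham 4 below it. Defensin genes are near-identical copies, and reads could be split between them. Itln1, a lectin of goblet and Paneth cells, stood at 1715 in VSG 2, 945 in sham 2 and 227 in sham 4. The summed level of the 16 Paneth cell genes ran from 2671 to 21223 in the 3 and from 5029.7 to 42987 in the 7, and the median difference of the list was -1.56 without VSG 2 and 0.39 without sham 4. The genes high in VSG 2 included the B cell gene Cr2, the follicular complement receptor, at 13.2 in VSG 2, 0.660 in sham 2 and 0 in sham 4 against 0.430 to 19.2 in the 7.

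**Figure D5:**
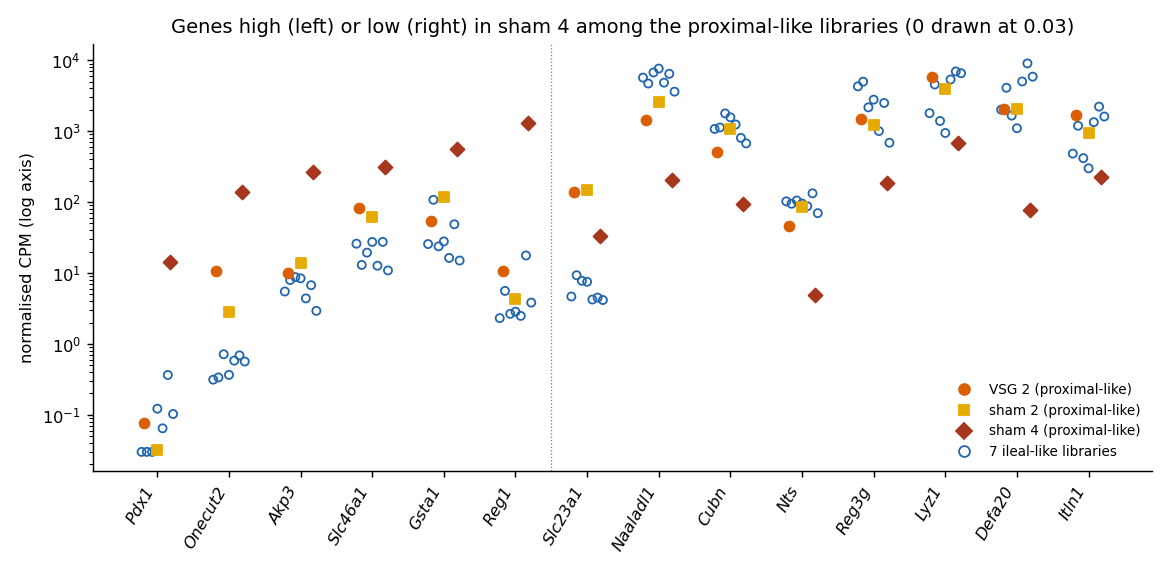
Normalised CPM (vertical log axis, 0 drawn at 0.03) of 6 genes that were high and 8 that were low in sham 4 among the proximal-like libraries. Pdx1 stood at 14.5 in sham 4 against 0.0772 in VSG 2 and 0.0314 in sham 2, and the open circles give the 7 ileal-like libraries.

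The effect of the operation at equal library class could be tested, since the surgery labels do not come from the expression values. At an adjusted p under 0.05 in edgeR's quasi-likelihood test, 0 of 16228 genes differed between VSG and sham (0%), while 670 had an unadjusted p under 0.05, 384 higher and 286 lower after VSG. DESeq2 called 21 and limma-voom 0 in the same design. The smallest adjusted p belonged to Ces1d, a carboxylesterase, with each of these tools, at 0.527 with edgeR, 2.95e-06 with DESeq2 and 0.399 with limma-voom. For the markers the differences were small beside those between the classes. Lct differed by 0.79 (95% interval -0.28 to 1.85) on the log2 scale, Fabp6 by -0.08 (95% interval -0.74 to 0.59) and Slc10a2 by 0.50 (95% interval -0.31 to 1.31). Apoa4 had a wide interval, at 2.53 (95% interval 0.39 to 4.66), with an edgeR adjusted p of 0.982. Fgf15 differed by 0.68 (95% interval -0.95 to 2.31) with the operation. A p above the threshold does not show that the operations gave equal levels. Whether the operation acted differently in the 2 classes was not tested, because 1 VSG library was proximal-like. Since nothing in the labels says that the samples of a group were separate animals, these p-values measure the spread between the samples.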

How the data were processed

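Per the labels' protocols, libraries were made with an Illumina TruSeq kit and sequenced as single-end reads of 50 bases, and the kit's strandedness is not stated. Per the submitters' processing notes, DESeq was used and the genome build was mm9, while the aligner and counter are not given in the sources used here. For each of the 10 libraries the authors deposited a column of estimated counts by Ensembl gene, although its name speaks of RPKM. Of these values 61.18% were whole, and they summed to 15364651 to 34058181 per library. The authors also deposited log2 values, which equal the log2 of the same counts over a single factor for each library, with the sham median of the gene subtracted. This was checked on 13772 genes with at least 10 counts in every library, where the difference varied by an SD of at most 3.5e-07.

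After rounding, the estimated counts were fitted with edgeR 4.0.16 (R 4.3.3; TMM scaling, filterByExpr on library class, quasi-likelihood test of operation and class, Benjamini-Hochberg adjustment over 16228 genes). A gene was called at an adjusted p under 0.05. Normalised CPM uses TMM-scaled totals, is not per length, and compares libraries only. Library class came from Gata4 CPM by library total. The libraries and the gene lists were chosen with earlier results of these data known. Genes named were the markers, the 10 called genes with the largest fold change in each direction whose classes did not overlap, the 6 most abundant called genes in each direction, up to 4 genes per list with the lowest p, and a set listed by role. Genes named for single libraries, and further list members that differed from their list, were added after their values were seen. Alternatives used other scalings, filters, tests (DESeq2 1.42.0, limma 3.58.1) and covariates, and left out each library in turn. In simulated data the main fit recovered 28 of 98 genes changed 2-fold and 83 of 100 changed 4-fold, with 6 false among 117 calls. A gene that was not called can therefore still differ by 2-fold. The simulated classes were set beforehand, while the real ones were chosen by expression. The 6 false calls thus give no error rate for the real calls. None of the 13 genes of the mitochondrial genome was matched. Promoters were taken from RefSeq by symbol. Those of Gata4, Apoc3, Hoxb9 and Fgf15 are not shown.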

Additional observations from a re-analysis of the deposited data

Results flagged for a closer look

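In 12 of the 104 groups of values examined, 1 of the 7 ileal-like libraries stood far outside the range of the other 6, by Dixon's criterion at 95%. Chance alone gives about 1 in 20 for independent groups with a normal spread. The genes here are not independent, were partly chosen by their values and were examined without logs. The count is therefore no measure of an excess over chance. VSG 3 was the high library for 4 of these genes, at 9255 normalised CPM for Apoa4 (others 205 to 2471), 647 for Fabp1 (12.3 to 95.9), 1056 for Rbp2 (119 to 386) and 81.5 for Tat (6.74 to 35.2). VSG 1 was high for Slc6a14 at 140.2 (others 16.4 to 44.8) and for Saa1 at 145 (9.25 to 64.4). Sham 3 was high for Sct at 105 (34.2 to 64.2), Reg3a at 152 (60.7 to 85.1) and Otop3 at 0.648 (0 to 0.203). Sham 5 was high for Sprr2a1 at 14190 (2297 to 5766), for its near-identical copy Sprr2a2 at 14114 (2311 to 5729) and for Slc1a1 at 669.7 (187 to 378).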

How the results depend on the processing

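The 568 genes called higher and the 459 called lower in the proximal-like libraries became 865 and 787 with DESeq2, which shared 1024 of the 1027 calls. Leaving out single libraries gave 342 (without sham 4) to 620 (without sham 3) higher and 192 (without sham 4) to 470 (without sham 3) lower, with 516 of 534 calls shared without sham 4. The other scalings, filters and tests gave 521 to 604 higher and 430 to 528 lower, and the fit without the operation as covariate gave 661 and 563. The 0 genes called for the operation were 21 with DESeq2 and 0 in every other setting tried, single libraries left out included. For same-numbered VSG and sham libraries, Pearson r across genes was 0.058, 0.189, -0.046, -0.3 and -0.052 for numbers 1 to 5. It was taken over deviations from the mean of each operation. These hold the class difference, so r cannot show whether same-numbered libraries are pairs. The labels do not name pairs, and the main fit used none. With the replicate block 0 genes were called in either direction or for the operation. Library class and number overlap closely, and number 2 holds a proximal-like library of each operation. Only number 4 holds both classes, with sham 4 proximal-like and VSG 4 ileal-like. With the block, the class difference was therefore estimated from number 4 alone. Of 103 genes followed through these settings, 85 were called, Gata4 among them. Some genes with values in the text were not followed, among them Hoxb3, Slc11a2, Pdx1, Reg1, Gsta1, Papss2, Lyz1, Defa20, Itln1 and Cr2. All 85 kept their call under 3 other scalings and 2 other filters, 83 with DESeq2 (2 had no adjusted p), 81 with limma-voom, 81 without the operation as covariate, and 79 with limma on the deposited log2 values, where Gata4, Lct, Apoa4, Sct, Otop3 and Dnase1 lost it. With single libraries left out, 67 (without sham 4) to 83 (without VSG 5) kept it. The log2 difference changed sign for 3 of the 103 genes, none of them called. With single libraries left out it ran from -0.402 (without sham 2) to 0.0377 (without VSG 2) for Gata5, from -0.190 (without sham 2) to 1.31 (without VSG 2) for Fabp2 and from -0.0229 (without sham 3) to 0.221 (without sham 1) for Cybrd1, which was -0.0064 without VSG 2. With the replicate block it was -0.437 for Fabp2 and -0.334 for Cybrd1. List medians that crossed 0 with single libraries left out included those of Paneth cells, iron, calcium and zinc absorption (-0.90 to 0.19), amino acid carriers (-0.08 to 0.48), peptidases (-0.47 to 0.07) and vitamin uptake (-0.02 to 0.54). The medians of position factors (-0.49 to -0.12), Hox genes (-0.85 to -0.15) and epithelial defence (-1.52 to -0.46) kept their sign. The causes of these changes were not tested.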
